A study of Mus musculus with 6 samples.

Results

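The 9 members described here are the peroxins *Pex2*, *Pex3*, *Pex5*, *Pex11a*, *Pex11g*, *Pex13*, *Pex14*, *Pex16* and *Pex19*, taken from the deposited liver RNA-Seq table by gene symbol. Each symbol matched 1 row, so the members are 9 of the 54532 genes listed, and all 9 passed the filter on low counts. Peroxins are the proteins that build the peroxisome, the organelle in which hepatocytes shorten very long-chain and branched fatty acids, make bile acids and plasmalogens, and break down hydrogen peroxide. They divide the work: PEX3, PEX16 and PEX19 insert membrane proteins, PEX5 carries enzymes from the cytosol to the PEX13 and PEX14 docking complex, a ubiquitin ligase that contains PEX2 returns the receptor to the cytosol, and PEX11 proteins elongate the membrane so that the organelle can divide. Loss of most single peroxins leaves empty or absent peroxisomes, which is the defect of the Zellweger spectrum disorders.

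RNA was sequenced from the livers of 6 mice, 3 control and 3 g*Spns1*-cKO (knockout in what follows), with 1 library per mouse. The g*Spns1*-cKO mice carried *Spns1* fl/fl and Rosa26Cre-ERT2, a Cre that tamoxifen activates, and received tamoxifen at 50 mg/kg on postnatal days 11, 13 and 15, which removes exon 3 of *Spns1*. SPNS1 is the lysosomal transporter through which lysolipids leave the lysosome, and the sequencing was done to find the pathways that change when these lipids accumulate. The labels call the controls wild type, whereas the study's methods describe *Spns1* fl/fl littermates, so that both groups would share the floxed allele. The Rosa26 promoter is active in all tissues, so the deletion was not restricted to hepatocytes. The study's methods give a C57BL/6 background for all mice. The age at which these livers were collected, the sex of the mice and whether the controls were injected with tamoxifen are not given in the sources used here. The libraries held between 30350002 and 35295611 counts. *Spns1* itself stood at 54.7% of its control mean in g*Spns1*-cKO livers (log2 fold change of -0.87 with SE 0.25, edgeR adjusted p = 0.03). After TMM scaling of the libraries the groups did not overlap for *Spns1*. Its unscaled counts did overlap (1008, 1562 and 875 in controls, 642, 1175 and 698 in knockouts). That call for *Spns1* was lost (edgeR adjusted p between 0.0785 and 0.091) without control replicate 2, knockout replicate 1 or knockout replicate 3, and under library size alone (-0.43), upper-quartile (-0.74) and hepatocyte marker scaling (-0.39).

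With TMM scaling of the libraries, 8 of the 9 peroxins were lower in g*Spns1*-cKO livers, and none was higher. The membrane-assembly gene *Pex16* fell 2.96-fold and the division gene *Pex11a* fell 2.91-fold. *Pex14* fell to 58.8% of its control mean, and *Pex3*, *Pex19*, *Pex5*, *Pex13* and *Pex11g* fell to between 68.8% and 70.5%. *Pex2* stood at 95.1% of control and did not pass the test. These 8 of 9 calls, by edgeR's quasi-likelihood test with adjusted p under 0.05, stand beside 20.5% of all 15449 tested genes called lower and 21.3% called higher. The calls depended on the scaling. By library size alone, 3 members were lower and 1 higher (6.29% and 47.2% of all tested genes). Scaled by hepatocyte markers, 2 were lower and 1 higher (5.12% and 48.9%). *Pex16* and *Pex11a* were called lower under each of these scalings.

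Promoter windows of 300 bases, from 250 bases before to 50 after the annotated start, were given in the RefSeq table (GRCm38.p6) for 7 of the 9 members, in 10 windows, and not for *Pex2* and *Pex19*. They are shown for the members that fell furthest, *Pex16* and *Pex11a*, and for *Pex13* and *Pex11g*, whose windows hold a cyclic AMP response element. Each stretch runs from 180 bases before the start to 20 after it, 5′ to 3′ on the strand of the gene. Capitals mark a GC box (GGGCGG) and a CCAAT box (CCAAT) in *Pex16*, an ETS core (CCGGAAG, here on the opposite strand) in *Pex11a*, and the cyclic AMP response element (TGACGTCA) in *Pex13* and *Pex11g*. Other matches are left in lower case.
Pex16, chr2:92374496-92374695, plus strand: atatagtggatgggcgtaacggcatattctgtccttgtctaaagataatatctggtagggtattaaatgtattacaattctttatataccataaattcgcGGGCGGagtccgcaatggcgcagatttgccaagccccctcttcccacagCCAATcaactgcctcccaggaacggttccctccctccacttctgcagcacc
Pex11a, chr7:79743112-79743311, minus strand: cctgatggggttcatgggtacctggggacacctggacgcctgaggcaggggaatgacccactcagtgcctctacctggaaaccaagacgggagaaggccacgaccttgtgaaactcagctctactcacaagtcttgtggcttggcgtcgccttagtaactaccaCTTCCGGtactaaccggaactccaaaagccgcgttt
Pex13, chr11:23665864-23666063, minus strand: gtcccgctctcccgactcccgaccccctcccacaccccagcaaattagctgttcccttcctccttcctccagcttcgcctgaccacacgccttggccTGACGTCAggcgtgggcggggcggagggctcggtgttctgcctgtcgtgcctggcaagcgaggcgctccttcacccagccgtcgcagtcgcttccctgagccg
Pex11g, chr8:3467629-3467828, minus strand: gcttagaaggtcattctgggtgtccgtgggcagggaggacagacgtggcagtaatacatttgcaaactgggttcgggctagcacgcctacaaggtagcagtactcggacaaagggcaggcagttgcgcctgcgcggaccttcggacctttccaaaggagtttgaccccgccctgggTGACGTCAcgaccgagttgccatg

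The 10 windows of the members had GC contents between 44.3% and 79.0%, with 7 above and 3 below the median of 52.7% over all 32851 windows. The 3 below it were those of *Pex14* (46.3%) and both windows of *Pex16* (44.3% and 52.0%). The members' windows held between 9 and 39 CpG dinucleotides, against a median of 7 over all windows. On either strand, a GC box was found in 7 of the 10 windows, and in 35.7% of all windows. By gene, 6 of the 7 members with a window had one. Of the *Pex5* windows, 2 overlap and share some GC boxes, so those sites are counted in both. The cyclic AMP response element was found in 2 of 10, at position -83 of *Pex13* and position -4 of *Pex11g*, and in 1.79% of all windows. A CCAAT box was found in 3 of 10, 1 of *Pex16* and 2 of *Pex5* (37.4% of all windows), and an ETS core in 1 of 10, that of *Pex11a* (8.86% of all windows). The full direct repeat bound by peroxisome proliferator-activated receptors (the half-site AGGTCA repeated after 1 base) was found in 0 of 10 and in 0.0396% of all windows, and the single half-site in 1 of 10, that of *Pex11g*, and in 16.3%. The E-box CACGTG was found in none of the 10 and in 7.15% of all windows. These matches describe letters in the windows, the motifs were picked after the windows had been seen, and no binding was measured.

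PEX3 sits in the peroxisomal membrane and is the docking site for PEX19, the cytosolic chaperone that delivers newly made membrane proteins, while PEX16 recruits PEX3 and other membrane proteins. *Pex16* (ENSMUSG00000027222, chr2:92374676-92381217 of GRCm38) had 162, 140 and 128 CPM (counts per 1e6 of the library total, scaled by TMM) in controls, against 52.4, 50.7 and 41.8 CPM in knockouts. The lowest control library was well above the highest knockout library. Its mean went from 143 ± 17.2 to 48.3 ± 5.71 CPM (SD, n = 3), and its log2 fold change was -1.57 (SE 0.13, 95% interval -1.86 to -1.27, edgeR adjusted p = 2.34e-05). *Pex19* (ENSMUSG00000003464, chr1:172126755-172136493) had 153, 151 and 156 CPM in controls, against 113, 111 and 97.4 CPM in knockouts. Control values were tight and lay above every knockout value. The log2 fold change of *Pex19* was -0.52 (SE 0.11, 95% interval -0.76 to -0.28, edgeR adjusted p = 0.00391). *Pex3* (ENSMUSG00000019809, chr10:13523842-13553142) had 27.7, 23.0 and 22.7 CPM in controls, against 16.6, 18.0 and 17.2 CPM in knockouts. The groups again did not overlap, and the log2 fold change was -0.50 (SE 0.12, 95% interval -0.77 to -0.24, edgeR adjusted p = 0.00678).

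PEX5 is the cytosolic receptor for matrix enzymes that end in the peroxisomal targeting tripeptide, and PEX14 and PEX13 form the complex on which it docks and through which cargo crosses the membrane. *Pex5* (ENSMUSG00000005069, chr6:124396816-124415067) had 189, 190 and 168 CPM in controls, against 132, 120 and 125 CPM in knockouts. *Pex14* (ENSMUSG00000028975, chr4:148960535-149099876) had 51.9, 47.1 and 48.6 CPM in controls, against 31.1, 27.8 and 27.9 CPM in knockouts. *Pex13* (ENSMUSG00000020283, chr11:23646479-23665959) had 59.2, 57.3 and 68.1 CPM in controls, against 47.6, 38.6 and 41.2 CPM in knockouts. In none of these docking and receptor genes did the groups overlap. *Pex14* fell furthest among them, with a log2 fold change of -0.77 (SE 0.10, 95% interval -0.99 to -0.54, edgeR adjusted p = 0.000289). *Pex5* and *Pex13* had the same log2 fold change of -0.53, with edgeR adjusted p = 0.00366 and 0.00491.

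PEX2 is a RING finger protein that ubiquitinates PEX5 in a complex with PEX10, the step that lets the receptor leave the membrane for another round. *Pex2* (ENSMUSG00000040374, chr3:5560188-5576239) had 53.8, 47.1 and 52.2 CPM in controls, against 50.7, 44.9 and 49.9 CPM in knockouts. The values overlapped, and the means of 51.0 ± 3.52 and 48.5 ± 3.12 CPM (SD, n = 3) were closer than the SD of either group. Its log2 fold change was -0.07 with a 95% interval from -0.30 to 0.16 (edgeR adjusted p = 0.606), an interval that leaves out the fold changes of the other 8 members.

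The PEX11 proteins bend and elongate the peroxisomal membrane ahead of division, and *Pex11a* is the member of the family that is known to be inducible by agonists of PPARα. *Pex11a* (ENSMUSG00000030545, chr7:79735957-79743131) had 169, 136 and 194 CPM in controls, against 43.9, 74.0 and 53.9 CPM in knockouts. It varied most among the 9, with a coefficient of variation of 17.3% in control and 26.8% in g*Spns1*-cKO livers, yet the groups stayed well apart. Its mean went from 167 ± 28.9 to 57.3 ± 15.3 CPM (SD, n = 3), and its log2 fold change was -1.54 (SE 0.20, 95% interval -2.00 to -1.08, edgeR adjusted p = 0.000514). *Pex11g* (ENSMUSG00000069633, chr8:3457105-3467680) had 31.1, 28.7 and 24.4 CPM in controls, against 18.8, 19.3 and 19.8 CPM in knockouts. The knockout values were nearly equal to each other and below all control values. The log2 fold change of *Pex11g* was -0.54 (SE 0.12, 95% interval -0.80 to -0.28, edgeR adjusted p = 0.00475).

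**Figure D1:**
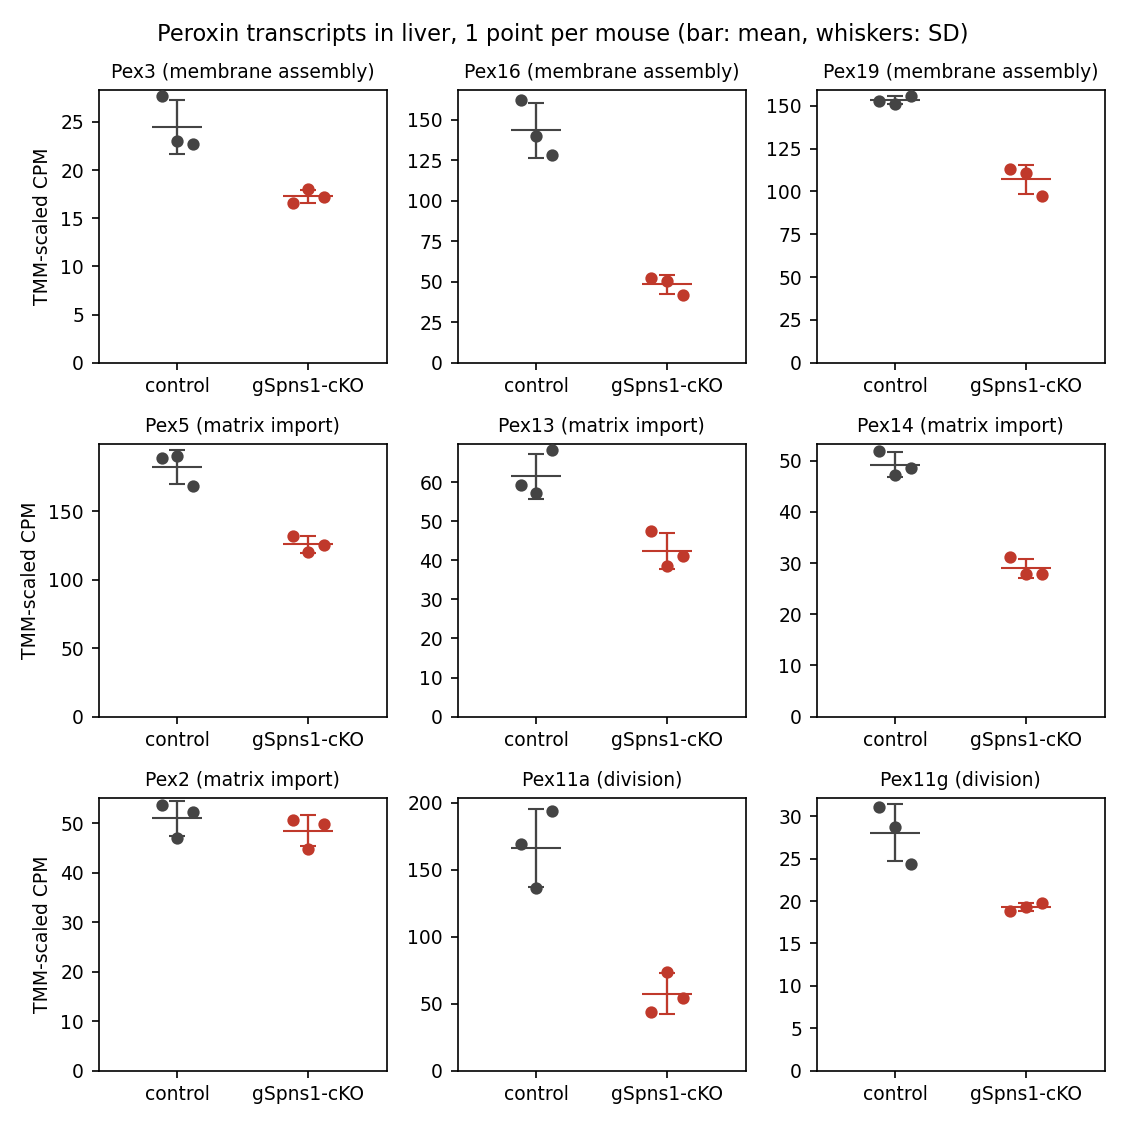
TMM-scaled CPM of the 9 peroxins in each liver, 1 panel per gene with an axis from 0, points for mice (grey control, red g*Spns1*-cKO), bars for means and whiskers for SD (n = 3). The groups lie apart in 8 panels, most widely for *Pex16* and *Pex11a*, and overlap for *Pex2*.

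In TMM-scaled CPM the 2 groups were apart for 8 of the 9 members, with every g*Spns1*-cKO library below every control library. For none was every knockout library above, as against 26.9% and 27.1% of all tested genes in the 2 directions. An exact two-sided permutation test of the same values over the 6 mice gave p = 0.1 for these 8 and p = 0.4 for *Pex2*. The smallest value that 3 mice against 3 can give is 0.1. Separation depends on the scaling and was not computed under the others. Unscaled counts of *Pex3* overlapped (778, 710 and 574 in controls, 596, 690 and 677 in knockouts). Those of *Pex16* did not (4545, 4317 and 3230 against 1887, 1946 and 1643). The median log2 fold change of the members was -0.53, against 0.01 over all tested genes. Among the members, 6 share bases with a gene on the opposite strand, and whether counting used strand is not stated, so reads of the overlapping bases cannot be told apart. Each partner had fewer CPM than the member it overlaps, in both groups. The antisense gene *Gm44706*, which overlaps *Pex11a* by 1339 bases, had 4.05 CPM in control and 1.74 CPM in g*Spns1*-cKO livers.

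Divided by the deposited gene length, the peroxins spanned a wide range of levels in control livers, from 80.6 CPM per kb for *Pex16* to 5.16 CPM per kb for *Pex3*. *Pex11a* (52.4 CPM per kb) and *Pex5* (46.3 CPM per kb) followed and overlapped each other, and *Pex19* (40.1 CPM per kb), *Pex2* (22.5 CPM per kb) and *Pex13* (13.2 CPM per kb) came next without overlap. *Pex11g* (8.26 CPM per kb) and *Pex14* (7.84 CPM per kb) overlapped and stood above *Pex3*. In g*Spns1*-cKO livers the order at the top was different. *Pex5* led with 31.9 CPM per kb, *Pex19* (28.1 CPM per kb) and *Pex16* (27.2 CPM per kb) overlapped behind it, and *Pex2* (21.4 CPM per kb) and *Pex11a* (18.0 CPM per kb) overlapped in turn. Thus *Pex16*, the highest peroxin transcript per length in control livers, was the third in g*Spns1*-cKO livers, and *Pex3* was last in both.

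Ratios of counts between a pair of genes in the same library do not depend on how libraries are scaled. The log2 ratio of *Pex16* to its partner *Pex3* was 2.55, 2.60 and 2.49 in controls and lay between 1.28 and 1.66 in knockouts. The ratio was nearly constant among controls and lower in every knockout liver, by 1.07 on average. The log2 ratio of *Pex11a* to *Pex11g* went from 2.56 ± 0.38 to 1.54 ± 0.37 (SD, n = 3), without overlap. The transcripts of the membrane-protein import pair, *Pex3* and *Pex19*, kept a log2 ratio of -2.65 ± 0.17 in control and -2.63 ± 0.14 in g*Spns1*-cKO livers. The log2 ratio of *Pex14* to *Pex13* differed by -0.23, that of *Pex5* to the other import receptor *Pex7* by -0.39, and that of *Pex2* to its ligase partner *Pex10* by -0.35. In these last 3 pairs the groups overlapped. The 6 pairs were compared by an exact two-sided permutation test, in which p cannot go below 0.1. The 2 ratios that did not overlap had p = 0.1 (0.24 after Benjamini-Hochberg adjustment over the 6 pairs), and the other 4 had p between 0.2 and 0.9 by the same exact test.

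**Figure D2:**
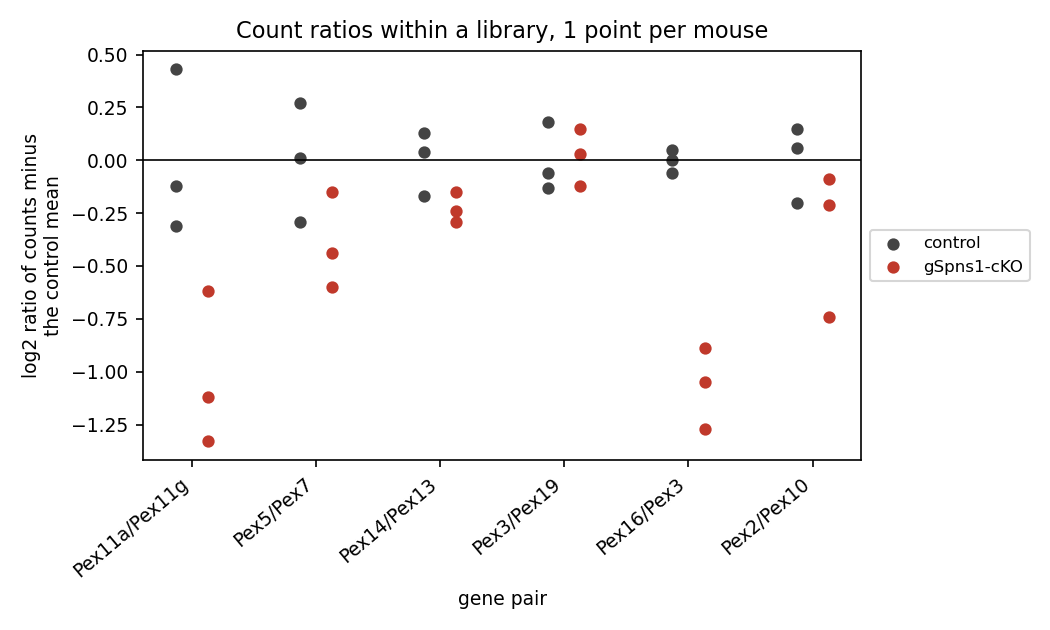
Log2 count ratios of 6 pairs of peroxin genes within each library, drawn as the difference from the control mean of that pair, with 1 point per mouse (grey control, red g*Spns1*-cKO). The g*Spns1*-cKO points lie below all control points for *Pex11a*/*Pex11g* and *Pex16*/*Pex3* and overlap with controls for the other 4 pairs.

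With TMM scaling, 10 of 17 hepatocyte markers were also lower in g*Spns1*-cKO livers. Every knockout library lay below every control library for 12 of the 17, and above for 1 (26.9% and 27.1% of all tested genes). All 17 hepatocyte markers were detected, and their summed level was 147000 to 152000 CPM in control and 91800 to 102000 CPM in g*Spns1*-cKO livers, with 10 of 17 lower, 0 higher and a median log2 fold change of -0.55. Of all tested genes, 20.5% were lower and 21.3% higher with this scaling. By library size alone, 3 of the 17 were lower and 2 higher, with a median of -0.11 (6.29% and 47.2% of all tested genes). In bulk liver, fewer hepatocytes and less of an RNA per hepatocyte cannot be told apart. Markers of other cells moved the opposite way: 11 of 11 macrophage markers were higher (summed level 189 to 308 CPM in control and 742 to 1110 CPM in g*Spns1*-cKO livers), as were 8 of 10 stellate cell markers (224 to 255 and 596 to 636 CPM), 6 of 7 cholangiocyte markers (59.4 to 77.7 and 186 to 299 CPM) and 5 of 7 endothelial markers (144 to 158 and 211 to 258 CPM). Lymphocyte markers gave 1 lower and 1 higher of 8 (4.34 to 5.65 and 6.02 to 7.01 CPM), all 3 tested neutrophil markers of 6 were higher (1.95 to 4.22 and 5.53 to 10.3 CPM), and the 3 tested erythroid markers of 4 gave 1 lower and 2 higher (126 to 144 and 74.1 to 165 CPM). No list held a marker without a count in any library. The summed level of the 9 peroxins was 820 to 896 CPM in control and 474 to 506 CPM in g*Spns1*-cKO livers, and the part of the cell makeup in that fall was not tested.

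The calls of 7 of the 9 members changed with the scaling of the libraries, and those of *Pex16* and *Pex11a* did not under the 4 scalings shown. When libraries were scaled by the hepatocyte markers instead of TMM, which moves the median of all tested genes to 0.51, *Pex3*, *Pex19*, *Pex5*, *Pex13* and *Pex11g* had log2 fold changes between -0.05 and -0.01 and none was called (edgeR adjusted p between 0.795 and 0.941). With library size alone, which moves that median to 0.46, the same 5 genes lay between -0.10 and -0.06 (edgeR adjusted p between 0.507 and 0.691). *Pex16* and *Pex11a* kept their calls, with log2 fold changes of -1.08 and -1.05 under hepatocyte marker scaling (edgeR adjusted p = 0.000154 and 0.000659) and -1.13 and -1.09 under library size alone (edgeR adjusted p = 0.000101 and 0.00179). *Pex14* was called at -0.32 under library size alone (edgeR adjusted p = 0.0203) and not at -0.27 under hepatocyte marker scaling (edgeR adjusted p = 0.0957). Upper-quartile scaling kept all 8 calls, where 14.5% of all tested genes were called lower and 26.6% higher. *Pex2* turned to 0.37 and 0.43 under library size alone and hepatocyte marker scaling and was then called higher (edgeR adjusted p = 0.011 and 0.0174), where 47.2% and 48.9% of all tested genes were called higher and 6.29% and 5.12% lower.

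**Figure D3:**
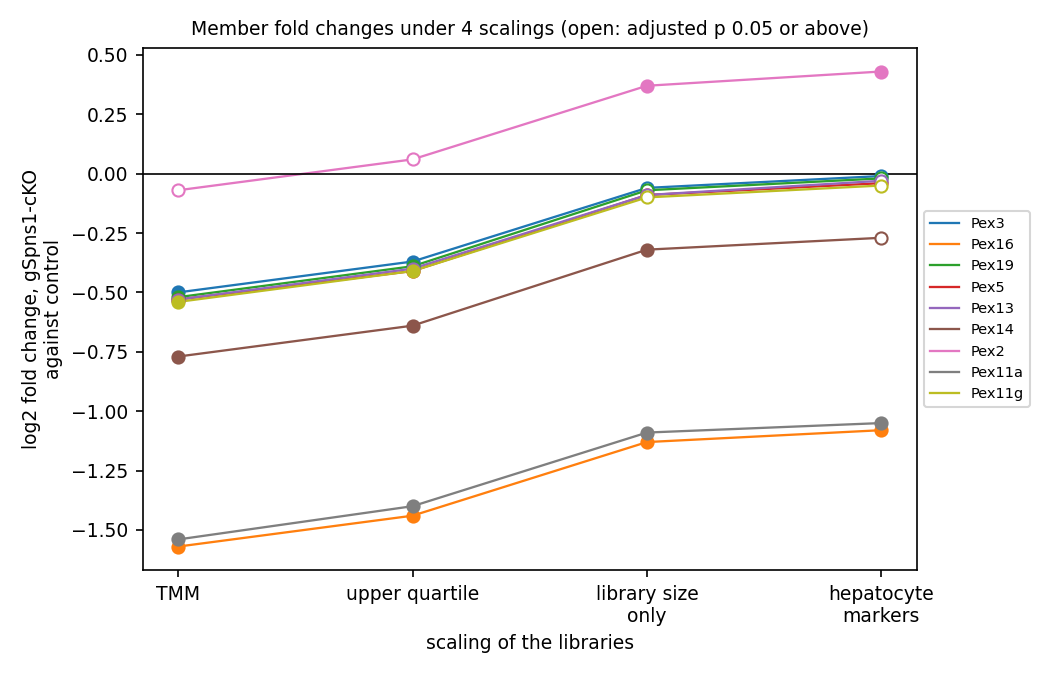
Log2 fold change of each of the 9 peroxins, g*Spns1*-cKO against control, under 4 ways of scaling the libraries, with filled points for adjusted p under 0.05. All values shift upward by about the same amount from TMM to hepatocyte marker scaling, where *Pex16* and *Pex11a* remain called lower and *Pex2* is called higher.

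A further 5 peroxins were examined, of which 4 passed the filter on low counts. Of these, 2 were lower and none was higher, with a median log2 fold change of -0.37, where 20.5% of all tested genes were lower and 21.3% higher. Under hepatocyte marker scaling 1 was lower and 2 were higher with a median of 0.12 (5.12% and 48.9% of all tested genes), and under library size alone 1 was lower and 1 higher with a median of 0.07 (6.29% and 47.2%). PEX6 belongs to the ATPase that pulls ubiquitinated PEX5 out of the membrane, and PEX26 anchors it there. *Pex6* had 134, 177 and 141 CPM in controls, against 78.3, 63.7 and 71.0 CPM in knockouts, without overlap, a log2 fold change of -1.08 (SE 0.14, edgeR adjusted p = 0.000219) that stayed called at -0.58 under hepatocyte marker scaling. *Pex26* fell by 0.60 on the log2 scale (edgeR adjusted p = 0.0136), but without g*Spns1*-cKO replicate 3 it stood at -0.52 and its adjusted p by edgeR was 0.058. Its log2 fold change was -0.16 under library size alone and -0.11 under hepatocyte marker scaling, and it was not called there (edgeR adjusted p = 0.453 and 0.595).

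PEX10 is the ligase partner of PEX2, and *Pex10* had a log2 fold change of 0.28 (95% interval -0.20 to 0.76, edgeR adjusted p = 0.332) and did not pass the test. *Pex10* was a low transcript, at 3.84 ± 0.682 CPM in control livers (SD, n = 3). *Pex7*, the receptor for the matrix enzymes with an amino-terminal signal, had 88.8 ± 11.9 and 80.4 ± 8.80 CPM (SD, n = 3), with a log2 fold change of -0.14 (95% interval -0.43 to 0.15, edgeR adjusted p = 0.406). *Pex10* was called higher under library size alone (0.72) and hepatocyte marker scaling (0.76), like *Pex2*, with edgeR adjusted p = 0.0194 and 0.0172. *Pex7* was called higher under hepatocyte marker scaling, at 0.35 (edgeR adjusted p = 0.0443). Of all tested genes, 47.2% and 48.9% were called higher under these scalings. *Pex5l*, a relative of *Pex5* best known from neurons, had 1, 0 and 3 counts in controls, against 9, 12 and 16 counts in knockouts, without overlap, and did not pass the filter on low counts. It entered 5 of the alternative fits and was called higher in 3 of them, with at least 1 count in any library as the filter (2.64), without control replicate 3 (3.98) and without knockout replicate 1 (2.81), with edgeR adjusted p = 0.0249, 0.02 and 0.0316. Without control replicate 1 or 2 edgeR gave adjusted p = 0.0794 and 0.0719. Its fitted fold changes rest on at most 3 counts in each control library.

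**Figure D4:**
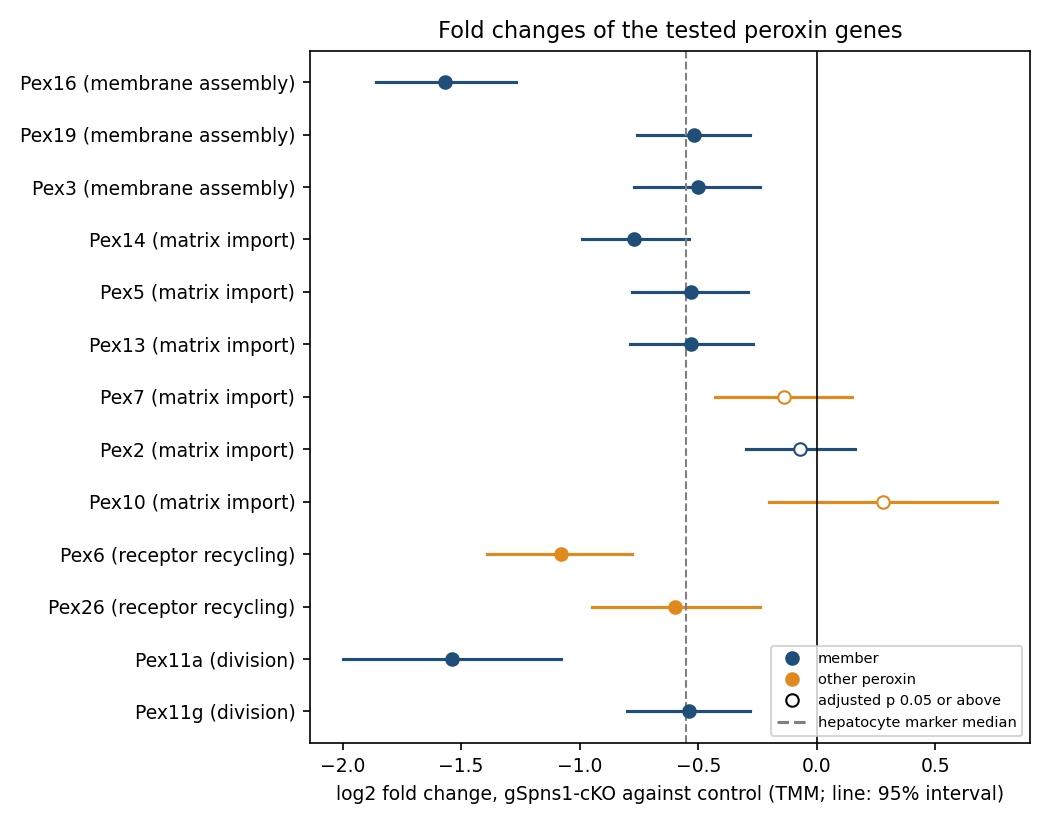
Log2 fold change with its 95% interval for 13 tested peroxins (blue the 9 members, orange the others), grouped by role, with open points at adjusted p of 0.05 or above and a dashed line at the hepatocyte marker median of -0.55. *Pex16*, *Pex11a* and *Pex6* lie left of that line with their whole interval, and *Pex2*, *Pex10* and *Pex7* lie right of it with theirs.

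Transcripts of proteins that act beside the peroxins were mixed. Of the genes for fission and tethering, 6 of 7 were tested, with 4 lower, 1 higher and a median log2 fold change of -0.39. These are 66.7% lower and 16.7% higher, beside 20.5% and 21.3% of all tested genes. *Dnm1l*, which encodes the GTPase that cuts the membrane PEX11 has elongated, was the one that rose (log2 fold change 0.50, SE 0.13, edgeR adjusted p = 0.0138). *Fis1*, one of its adaptors, fell by 0.40 (edgeR adjusted p = 0.00916), and *Mff*, another adaptor, was at 0.11 (edgeR adjusted p = 0.425). Under hepatocyte marker scaling *Fis1* turned to 0.10 and was not called. The genes for the tethers to the endoplasmic reticulum, *Acbd4* and *Acbd5*, fell by 0.99 and 0.66 on the log2 scale (edgeR adjusted p = 0.000168 and 0.00225). Of 9 genes of the receptor ubiquitin cycle and pexophagy, which is the autophagy of peroxisomes, 2 were lower and 0 higher with a median of -0.09: *Zfand6*, which helps to extract PEX5, fell by 0.56 and *Usp30*, a deubiquitinase that opposes pexophagy, fell by 0.53 (edgeR adjusted p = 0.00309 and 0.0165). The call of *Usp30* was lost without control replicate 3 (edgeR adjusted p = 0.069). Under hepatocyte marker scaling the counts became 1 lower and 2 higher for fission and tethering and 0 lower and 5 higher for the ubiquitin cycle, where 5.12% of all tested genes were lower and 48.9% higher. The ubiquitin cycle thus had 22.2% of its genes lower with TMM scaling, near the 20.5% of all tested genes, and its 5 of 9 higher under hepatocyte marker scaling is near the share of all genes too.

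The enzymes that PEX5 imports form the longest list. Of 42 such matrix enzymes, 40 were tested, and 30 were lower, 0 were higher and 10 were not called, with a median log2 fold change of -0.71, where 20.5% of all tested genes were lower. *Hao1* (glycolate oxidase) fell by 1.71 and *Crat* (carnitine acetyltransferase) by 1.59, each without overlap between the groups. *Nudt7*, a coenzyme A hydrolase, had the largest fall in the list at -3.12, with an SE of 0.78 (edgeR adjusted p = 0.0325), but its call was lost when any library other than knockout replicate 1 was left out (edgeR adjusted p between 0.0502 and 0.102). *Cat*, which encodes catalase, went from 2410 ± 382 to 1240 ± 232 CPM (SD, n = 3), with edgeR adjusted p = 0.00281. Of the 4 enzymes that PEX7 brings in, *Acaa1b*, *Phyh* and *Acaa1a* fell by 2.03, 1.67 and 1.20 on the log2 scale, whereas *Agps*, an enzyme of plasmalogen synthesis, rose by 0.52 (edgeR adjusted p = 0.00498). Under hepatocyte marker scaling, 12 of the 40 PEX5 cargo genes stayed lower and 3 were higher, with a median of -0.21 (5.12% and 48.9% of all tested genes), and the PEX7 cargo kept 3 lower and 1 higher. *Hao1* (-1.22) and *Crat* (-1.09) kept their calls there. *Cat* (-0.46) and *Nudt7* (-2.62) did not (edgeR adjusted p = 0.068 and 0.0513).

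PEX19 and PEX3 insert the proteins of the peroxisomal membrane, and of 9 genes for such proteins 5 were lower and 2 higher. Of all tested genes 20.5% were lower and 21.3% higher, so the share higher in this list (22.2%) was near that of all genes. *Abcd3*, the transporter for branched-chain and dicarboxylic acyl-CoA, fell by 1.41 (edgeR adjusted p = 0.00017) from 756 ± 112 to 285 ± 46.1 CPM (SD, n = 3). *Abcd2*, a transporter for very long-chain acyl-CoA, had 14.5 ± 2.57 CPM in control and 61.7 ± 30.3 CPM in g*Spns1*-cKO livers (SD, n = 3), and its log2 fold change was 2.09 (edgeR adjusted p = 0.0124), and without control replicate 2 edgeR gave an adjusted p of 0.0506. *Far1*, the reductase that supplies alcohols for plasmalogens, rose by 1.45 (edgeR adjusted p = 0.00023). Under hepatocyte marker scaling the count became 1 lower and 2 higher, where 5.12% of all tested genes were lower and 48.9% higher.

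PPARα with its partner RXRα drives transcription of peroxisomal genes in liver, *Pex11a* among them. Of 7 genes for these regulators, 4 were lower and 1 higher, where 20.5% of all tested genes were lower and 21.3% higher. *Ppara* fell from 68.1 ± 10.4 to 47.7 ± 4.53 CPM and *Rxra* from 550 ± 81.9 to 302 ± 29.9 CPM (SD, n = 3), with log2 fold changes of -0.51 and -0.87 (edgeR adjusted p = 0.00997 and 0.00147). The coactivator genes went apart, *Ppargc1a* at 1.30 and *Ppargc1b* at -1.18 (edgeR adjusted p = 0.00822 and 0.0192). *Ppargc1b* lost its call without control replicate 1 or knockout replicate 2 or 3 (edgeR adjusted p between 0.0566 and 0.0712). Under hepatocyte marker scaling none of the 7 was called lower and 3 were called higher, near the 48.9% of all tested genes called higher there. Of 16 targets of PPARα that act outside the peroxisome, 13 were lower and 1 higher, beside the same 20.5% and 21.3% of all tested genes. The median log2 fold change of the 16 was -1.25. The largest falls were those of *Acot1* at -4.01, *Cidec* at -3.34 and *Angptl4* at -2.86 (edgeR adjusted p = 0.000506, 0.00406 and 0.00326). *Pdk4* rose by 1.11 (edgeR adjusted p = 0.00411). *Cyp4a10* at -0.10 and *Cyp4a14* at 0.27 were not called (edgeR adjusted p = 0.673 and 0.551). With hepatocyte marker scaling, 12 of the 16 targets stayed lower and 1 higher, with a median of -0.75 (5.12% and 48.9% of all tested genes). *Pex11a* at -1.05 and *Pex16* at -1.08 under the same scaling lay below that median, and the other members lay above it. *Ppara* itself was at -0.01 there. Whether PPARα has a part in the peroxin levels was not tested.

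**Figure D5:**
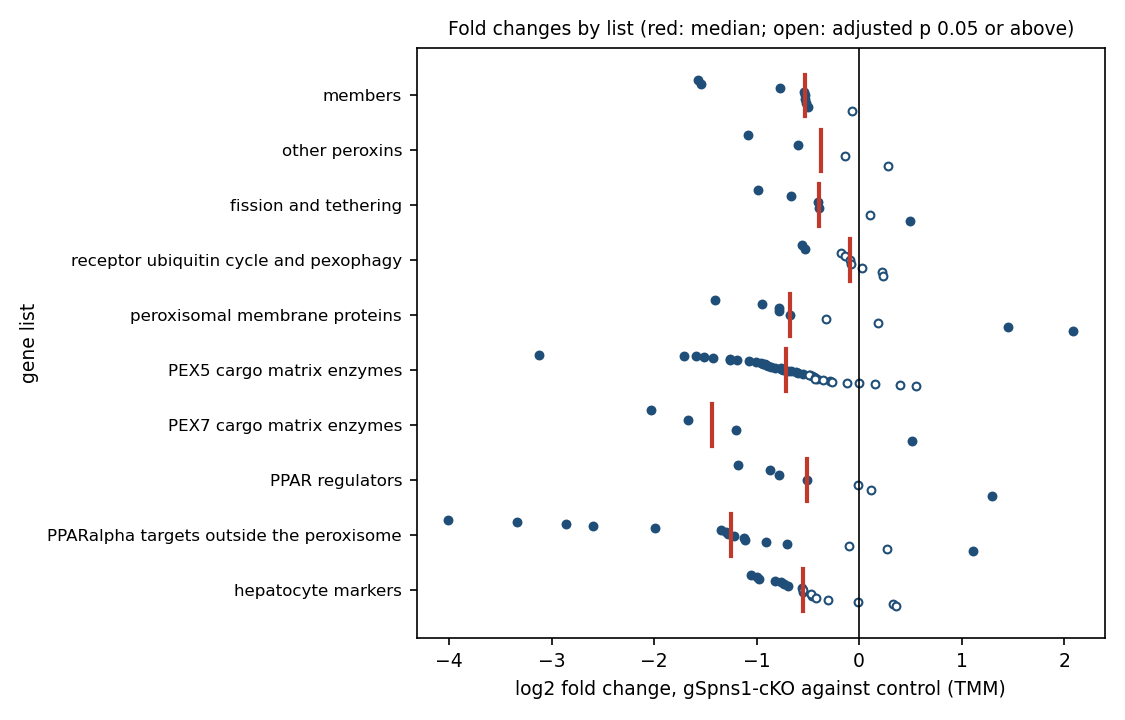
Log2 fold changes of single genes (points, filled at adjusted p under 0.05) in 10 gene lists, with TMM scaling and a red bar at the median of each list. The peroxin members centre on -0.53, near the hepatocyte markers at -0.55, while PEX5 cargo enzymes centre on -0.71 and PPARα targets outside the peroxisome on -1.25.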

How the data were processed

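Liver RNA was extracted with RNeasy columns, selected for poly-A and sequenced on Illumina by a sequencing service, 1 library for each of 6 mice. According to the submitters' processing notes, the authors' reads were trimmed with fastp, aligned to mm10 with HISAT2 2.0.5 and counted per gene with featureCounts 1.5.0-p3, and the strand setting is not given in the sources used here. The authors deposited 1 table of whole-number counts per gene and library, not normalized. The deposited table also holds FPKM per library, a signal per group (the authors' mean of scaled counts) and the log2 ratio and p-values, raw and adjusted, from the authors' test of the 2 groups, and none of these was used. Gene lengths as deposited gave levels per kb.

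Groups came from the sample labels. The members and gene lists were chosen with earlier results of these data known. Of 54532 genes, 26590 had a count and 15449 passed filterByExpr. Counts were tested in R 4.3.3 with edgeR 4.0.16 (TMM scaling, robust quasi-likelihood test, Benjamini-Hochberg adjustment over all tested genes, threshold 0.05), and the SE of a log2 fold change is its size over the square root of F. TMM factors were 0.834 to 0.873 in control and 1.16 to 1.18 in g*Spns1*-cKO libraries. The alternatives used DESeq2 1.42.0 and limma 3.58.1 (limma-voom), and hepatocyte marker scaling set the geometric mean of that list equal across libraries. Ratios and single members were tested by exact permutation in Python 3.11.15 with scipy 1.17.1. The fit was tested on simulated data. It called 35 of 98 genes set to an absolute log2 fold change of 0.75 and 76 of 96 set to 1.5. There were 14 false calls among 15164 unchanged genes. As a share of all calls in the simulation, these false calls were above the threshold of 0.05. Far fewer genes were changed in the simulation than were called in the livers, so these shares do not carry over directly. As a check for libraries deposited more than once, counts were compared within groups, and no pair was within sampling noise (chi-square per gene 29.4 to 83.9), so none were merged. The labels give each library as a separate liver, and intervals cover these mice only. Promoter windows are those of RefSeq (GRCm38.p6), and the coordinates of the members were the same in the deposited table and GENCODE M21. Named were *Spns1*, the 9 members and 5 further peroxins, the 3 called genes with the largest change of each further pathway list, and 8 pathway genes (*Ppara*, *Rxra*, *Ppargc1a*, *Dnm1l*, *Fis1*, *Mff*, *Cat*, *Abcd3*) whatever their values. Overlapping genes on the opposite strand, *Agps*, *Pdk4*, *Cyp4a10* and *Cyp4a14* were named after their values were seen. Some further genes of these lists are not reported here.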

Additional observations from a re-analysis of the deposited data

How the results depend on the processing

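Across the alternatives, 8 members were called lower and 0 higher with DESeq2 size factors, upper-quartile scaling, the DESeq2 test, limma-voom, both other filters, the threshold of 0.01 and each library left out. With library size only, 3 members were lower and 1 higher, and with hepatocyte marker scaling 2 were lower and 1 higher. The median log2 fold change of the members was then -0.09 and -0.04, and -0.41 with upper-quartile scaling. It lay between -0.60 (without control replicate 3) and -0.53 when 1 library was left out. *Pex2* turned from -0.07 to 0.37 with library size only, 0.06 with upper-quartile scaling and 0.43 with hepatocyte marker scaling, and *Pex7* to 0.30 and 0.35 with the first and the last of these. *Fis1* turned to 0.04 with library size only and 0.10 with hepatocyte marker scaling. The further peroxins called lower were 1 with library size only, hepatocyte marker scaling and the threshold of 0.01, and 1 to 2 when 1 library was left out (1 without g*Spns1*-cKO replicate 3). The PEX5 cargo genes called lower were 17 with library size only, 12 with hepatocyte marker scaling and 24 to 32 when 1 library was left out. Of all tested genes, 971, 791 and 1907 were lower and 7285, 7558 and 1983 higher with library size only, hepatocyte marker scaling and the threshold of 0.01, and 2125 to 3216 were lower and 2365 to 3213 higher when 1 library was left out. Correlations of the deviations of same-numbered libraries were 0.0371, 0.0331 and -0.0279, against -0.0654 to 0.0325 for differently numbered libraries. With 3 libraries per group, these values cannot decide whether the shared numbers pair the mice. A replicate block gave 8 members lower, and 3016 genes lower and 3083 higher in all. *Pex5l* and other low genes are limited by depth, where 3 counts are between 0.0763 and 0.118 CPM.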
